A study of Mus musculus with 6 samples.

Results

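The genes described here are 8 Toll-like receptors, the adaptor Myd88 and the coreceptor Cd14: Tlr1, Tlr2, Tlr3, Tlr4, Tlr7, Tlr8, Tlr9, Tlr13, Myd88 and Cd14. They were chosen by symbol in the mouse GENCODE M21 annotation and make up 10 of the 32110 genes listed in the RNA-seq tables, and all 10 passed the filter on low values that left 15560 genes for testing. The libraries are described as coming from tumors of CT26, a colon carcinoma cell line of Balb/c origin. The tumors were grown in the skin of wild-type male Balb/c mice after intradermal injection. In 3 of them, residual tumor was taken 3 days after incomplete radiofrequency ablation (iRFA), in which an electrode heats only a portion of the tumor so that living tumor remains. The other 3 were tumors labelled as having had no treatment, and their labels give no sham puncture and no time point. By the study's description all tumors grew from this 1 cell line, which is not evident in untreated replicates 1 and 2, as given below. RNA was made from whole tumor tissue, so that tumor cells, immune cells and stroma were measured together. The labels number the replicates but do not say that each came from its own mouse, and the p-values therefore measure the spread between these samples, which may be technical.

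Toll-like receptors are sentinels of innate immunity that recognize conserved microbial molecules and molecules set free by damaged cells, and they are prominent in macrophages and other myeloid cells. Tlr1, Tlr2 and Tlr4 sit at the cell surface and bind lipoproteins and lipopolysaccharide, whereas Tlr3, Tlr7, Tlr8, Tlr9 and Tlr13 sit in endosomes and read nucleic acids. Ligand binding recruits adaptor proteins, Myd88 for nearly all receptors and Ticam1 (TRIF) for Tlr3 and endosomal Tlr4, which switch on NF-kB and interferon regulatory factors and with them cytokine genes. Expression was measured as FPKM, a fragment count scaled to transcript length and library size, which corrects for gene length and allows levels of different genes to be set side by side.

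One library stood apart from its label group. Over the 15560 tested genes, the log2(FPKM + 1) profile of untreated replicate 3 had a Pearson correlation of 0.983 to 0.987 with the 3 iRFA libraries, whereas it was 0.807 with untreated replicate 1 and 0.801 with untreated replicate 2. Untreated replicates 1 and 2 correlated at 0.983 with each other. Epithelial markers, such as keratins, summed to 2.35 to 3.12 FPKM in the iRFA libraries, 721 and 677 FPKM in untreated replicates 1 and 2, and 1.77 FPKM in untreated replicate 3. Rhox5, Gm773 and Shisal2b, here taken as CT26-associated, were picked with these libraries in view, so their levels cannot test what the tissue was. They summed to 259 to 288 FPKM in the iRFA libraries, 0.188 and 0 FPKM in untreated replicates 1 and 2, and 266 FPKM in untreated replicate 3. The labelled tumor tissue was thus not evident from these genes in untreated replicates 1 and 2, and what that tissue was is not decided here. Each comparison is therefore given with all 6 libraries, without untreated replicate 3, and against untreated replicate 3 alone. Relative sequencing depth, read from the steps between low values, was 1.09 to 1.10 in the iRFA libraries and 1.00 to 1.07 in the untreated libraries, with untreated replicate 1 set to 1. With 3 libraries against 3, an exact two-sided permutation test cannot give a p below 0.1.

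Across all 6 libraries, the surface receptor Tlr2 and the lipopolysaccharide coreceptor Cd14 were higher in every iRFA tumor than in any untreated tumor, each by about the same fold. The 5 endosomal receptors had higher means in iRFA tumors, but in each of them at least 1 untreated library reached into the iRFA range. Myd88, the shared adaptor, was the only 1 of the 10 genes with a lower mean in iRFA tumors. After adjustment over all tested genes none of the 10 passed the threshold of 0.05 in limma (a linear model that shares the variance between genes), in a fit in which the share of all genes called was 0% higher and 0% lower and the smallest adjusted p of any gene was 0.250. At an unadjusted p under 0.05, 3 of the 10 were higher (Tlr2, Tlr13 and Cd14) against 7.94% of all tested genes, and 0 were lower against 6.75%.

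**Figure D1:**
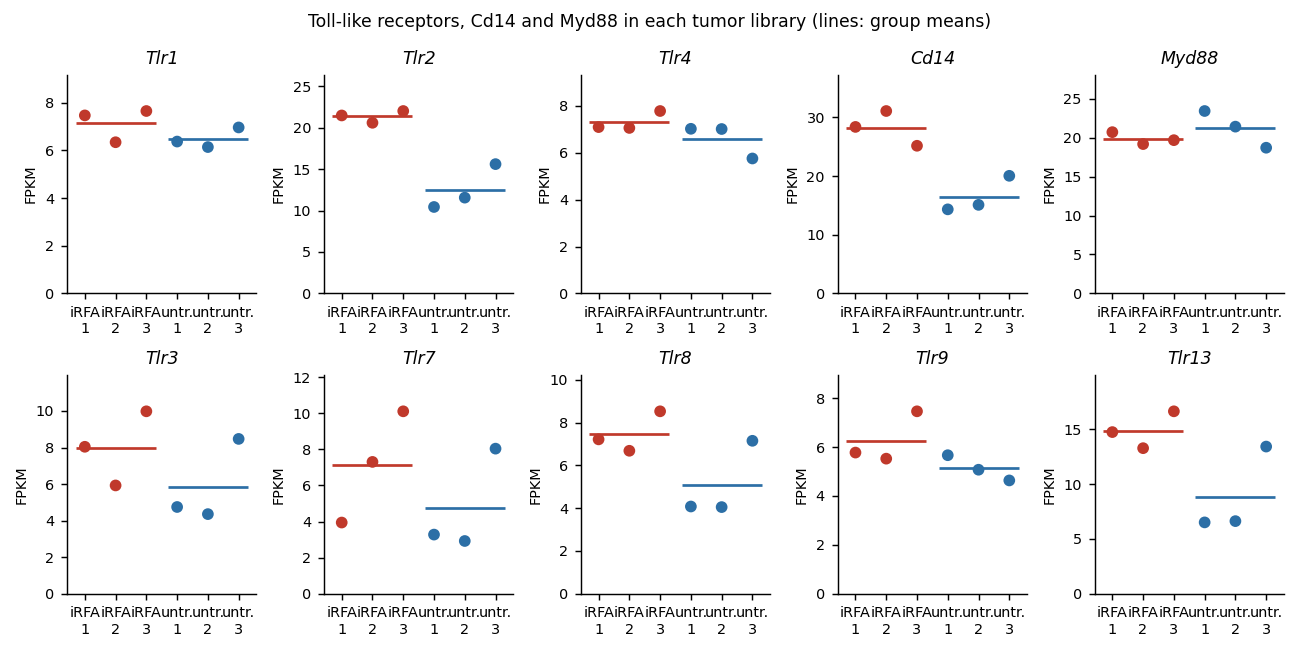
FPKM (vertical axis, from 0) of each of the 10 genes in the 3 iRFA libraries (red, left) and the 3 untreated libraries (blue, right), with points for libraries and lines for group means. Tlr2 and Cd14 lie higher in all 3 iRFA libraries, while for Tlr3, Tlr7, Tlr8 and Tlr13 untreated replicate 3 lies within the iRFA range and the other 2 untreated libraries below it.

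The groups did not overlap, with every iRFA library above every untreated library, for 3 of the 10 genes (Tlr2, Tlr4 and Cd14), against 11.4% of all tested genes. Rescaling the libraries to equal sums left Tlr2 and Cd14 without overlap but not Tlr4, against 9.1% of all tested genes. Without rescaling, every iRFA library lay below every untreated library for 0 of the 10, against 10.5% of all tested genes. The median log2 fold change, on the log2(FPKM + 1) scale and iRFA over untreated, was 0.46 over the 10 genes and 0.02 over all tested genes, and 9 of the 10 were positive. Macrophage markers moved with these genes. They summed to 1831 to 2037 FPKM in iRFA libraries and 1078 to 1649 FPKM in untreated libraries, 8 of the 10 markers were higher without overlap, and none was at 0 in all libraries. Pan-leukocyte markers summed to 573 to 654 FPKM in iRFA libraries and 368 to 518 FPKM in untreated libraries, with 7 of 10 higher without overlap. Other myeloid lists did not show this with all 6 libraries. Monocyte markers had 0 of 8 without overlap and a median log2 fold change of 0.11. The medians of the tested neutrophil and conventional dendritic cell markers were −0.44 and −0.44, with 0 of 4 and 1 of 8 positive. Against untreated replicate 3 alone the medians were 0.34 for neutrophil, 0.07 for conventional dendritic cell, 0.10 for monocyte and 0.23 for macrophage markers. The part of cell composition in the receptor values was not tested, and in such bulk tissue more cells of a type and more RNA per cell cannot be told apart.

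Tlr2, which pairs with Tlr1 or Tlr6 to bind bacterial lipopeptides, lies on chromosome 3 (GRCm38, 83836272 to 83841767, − strand). It was at 21.5, 20.6 and 22.0 FPKM in the iRFA libraries, against 10.4, 11.6 and 15.6 FPKM in the untreated libraries. The iRFA libraries were tightly grouped, and untreated replicate 3 was the highest of the untreated libraries without reaching them. The means were 21.4 ± 0.718 FPKM after iRFA and 12.5 ± 2.72 FPKM in untreated tumors (SD, n = 3 each), a fold of 1.70, and the log2 fold change was 0.74 (SE 0.16; limma adjusted p = 0.250; unadjusted p = 0.00366). The fold was 1.94 against untreated replicates 1 and 2 and 1.37 against untreated replicate 3. Cd14, which hands lipopolysaccharide to Tlr4 and also assists Tlr2, had a similar fold, with 28.4, 31.1 and 25.2 FPKM in the iRFA libraries, against 14.3, 15.1 and 20.0 FPKM in the untreated libraries. Its means were 28.2 ± 2.97 FPKM and 16.5 ± 3.10 FPKM (SD, n = 3 each), a fold of 1.71 with a log2 fold change of 0.75 (SE 0.16; limma adjusted p = 0.250; unadjusted p = 0.00359). The ratio of Cd14 to Tlr2 was 1.32, 1.51 and 1.14 in the iRFA libraries, against 1.37, 1.31 and 1.28 in the untreated libraries, and within the iRFA group their levels ran in opposite order. Each of these genes was thus higher after iRFA whichever untreated libraries were used, with log2 fold changes of 0.43 for Tlr2 and 0.47 for Cd14 against untreated replicate 3, where limma gave adjusted p values of 0.591 and 0.710.

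Tlr4, the lipopolysaccharide receptor (chromosome 4, 66827584 to 66930284, + strand), had nearly the same level in 4 of the 6 libraries. It was at 7.09, 7.06 and 7.78 FPKM in the iRFA libraries, against 7.02, 7.01 and 5.76 FPKM in the untreated libraries. The groups did not overlap, but the gap between the lowest iRFA and the highest untreated library was far smaller than the spread within either group. The log2 fold change was 0.13 (SE 0.11; limma adjusted p = 0.424). It was 0.05 without untreated replicate 3 and 0.30 against that library alone. Tlr1, the partner of Tlr2 for triacylated lipopeptides (chromosome 5, 64924679 to 64933563, − strand), was at 7.47, 6.35 and 7.66 FPKM in the iRFA libraries, against 6.37, 6.14 and 6.97 FPKM in the untreated libraries. The groups overlapped, and the log2 fold change of 0.12 (SE 0.11) had a limma adjusted p of 0.460. The ratio of Tlr2 to Tlr4 was 3.03, 2.92 and 2.83 in the iRFA libraries, against 1.49, 1.65 and 2.71 in the untreated libraries. Tlr1 and the neighboring Tlr6 share near-identical sequence, with 7.89% of the 100-base windows of Tlr1 transcripts also present in Tlr6 and a longest identical run of 229 bases, so that reads could be split between them. The value of Tlr1 is uncertain to that extent, whereas none of the windows of Tlr2, Tlr4, Tlr7, Tlr8, Tlr9, Tlr13 or Cd14 occurred in another gene.

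Tlr13 was the most abundant endosomal receptor in each library. In mice it senses a conserved stretch of bacterial ribosomal RNA, and it lies on chromosome X (106143204 to 106160493, + strand). It was at 14.8, 13.3 and 16.7 FPKM in the iRFA libraries, against 6.51, 6.63 and 13.4 FPKM in the untreated libraries. Untreated replicate 3 lay just above the lowest iRFA library, and the other untreated libraries were far below. The means were 14.9 ± 1.69 FPKM and 8.86 ± 3.97 FPKM (SD, n = 3 each), a fold of 1.68 with a log2 fold change of 0.76 (SE 0.28; limma adjusted p = 0.250; unadjusted p = 0.0375). The fold was 2.27 against untreated replicates 1 and 2 and 1.11 against untreated replicate 3. Tlr8, an RNA sensor that in mice is also known for restraining Tlr7 (chromosome X, 167242696 to 167264329, − strand), had the same arrangement, with 7.22, 6.68 and 8.53 FPKM in the iRFA libraries, against 4.08, 4.05 and 7.15 FPKM in the untreated libraries. Its log2 fold change was 0.51 (SE 0.22; limma adjusted p = 0.250). It was 0.74 without untreated replicate 3 and 0.05 against that library alone.

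Tlr7, the sensor of single-stranded RNA next to Tlr8 on chromosome X (167304929 to 167330558, − strand), had the largest SD of the 10 genes among the iRFA libraries, 3.09 FPKM. It was at 3.94, 7.30 and 10.1 FPKM in the iRFA libraries, against 3.28, 2.92 and 8.04 FPKM in the untreated libraries. Replicate 1 of the iRFA group was close to untreated replicates 1 and 2, and untreated replicate 3 was above 2 of the 3 iRFA libraries. The log2 fold change was 0.53 (SE 0.44; limma adjusted p = 0.407). Tlr3, the double-stranded RNA sensor that signals through Ticam1 rather than Myd88 (chromosome 8, 45395665 to 45411080, − strand), was at 8.04, 5.92 and 9.98 FPKM in the iRFA libraries, against 4.74, 4.35 and 8.47 FPKM in the untreated libraries. Its groups overlapped in the same way, and the log2 fold change was 0.41 (SE 0.28; limma adjusted p = 0.333). Both genes had negative log2 fold changes against untreated replicate 3 alone, −0.23 for Tlr7 and −0.10 for Tlr3. The antisense gene Gm45542 overlaps 7.32% of the exon bases of Tlr3, and whether the libraries kept strand is not given in the sources used here.

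Tlr9, the sensor of unmethylated CpG DNA (chromosome 9, 106222598 to 106226883, + strand), was the only endosomal receptor whose lowest level was in untreated replicate 3. It was at 5.78, 5.53 and 7.47 FPKM in the iRFA libraries, against 5.67, 5.08 and 4.64 FPKM in the untreated libraries. The groups overlapped through untreated replicate 1. The log2 fold change was 0.24 (SE 0.14; limma adjusted p = 0.291), and it was 0.18 without untreated replicate 3 and 0.35 against that library alone. Tlr7 and Tlr9 are classically found in plasmacytoid dendritic cells and B cells as well as in macrophages. B cell markers summed to 2.03 to 3.09 FPKM in iRFA libraries and 2.79 to 4.48 FPKM in untreated libraries, and only Cd79b of the 8 passed the filter on low values, with overlapping groups. Plasmacytoid dendritic cell markers summed to 252 to 273 FPKM in iRFA libraries and 133 to 252 FPKM in untreated libraries, a sum made up mostly of the widely expressed interferon-induced gene Bst2, the 1 of 7 that was higher without overlap. Siglech, a defining marker, was at 0.203, 0.170 and 0.308 FPKM in the iRFA libraries, against 0.560, 0.513 and 0.125 FPKM in the untreated libraries. The part of these cells in the receptor levels was not tested.

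Myd88 (chromosome 9, 119335934 to 119341411, − strand) was at 20.7, 19.2 and 19.7 FPKM in the iRFA libraries, against 23.4, 21.4 and 18.7 FPKM in the untreated libraries. The groups overlapped because untreated replicate 3 was the lowest of all libraries. The means of 19.9 ± 0.782 FPKM and 21.2 ± 2.37 FPKM (SD, n = 3 each) differed by a log2 fold change of −0.08 (SE 0.11; limma adjusted p = 0.599), which was −0.17 without untreated replicate 3 and 0.08 against it alone. The ratio of Myd88 to the summed FPKM of the 8 receptors was 0.274, 0.264 and 0.218 in the iRFA libraries, against 0.487, 0.449 and 0.267 in the untreated libraries. Acaa1a on the opposite strand overlaps 290 of the 2576 exon bases of Myd88, and reads from there cannot be told apart if strand was not kept.

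The promoters of 4 of these receptors are shown because the genes separate by their pattern over the libraries: Tlr2, higher in each iRFA library, Tlr13 and Tlr8, for which untreated replicate 3 lay in the iRFA range, and Tlr9, for which it was the lowest library. RefSeq windows on GRCm38.p6 (250 bases before to 50 after the start) were found for 7 of the 10 genes, Tlr1, Tlr2, Tlr3, Tlr8, Tlr9, Tlr13 and Myd88. Only the 250 bases before the start were searched, on both strands, for the NF-kB (kB) motif, for the AP-1 motif TGANTCA and for the ETS core GGAAGT. Matches of different motifs did not overlap in the stretches printed. Only bases before the annotated GENCODE start are printed, 5′ to 3′ along the gene, and capitals mark a motif match.
Tlr2, chr3:83841768-83841858 (− strand): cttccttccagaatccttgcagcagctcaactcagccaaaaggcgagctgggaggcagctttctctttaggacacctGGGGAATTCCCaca
Tlr13, chrX:106143025-106143203 (+ strand): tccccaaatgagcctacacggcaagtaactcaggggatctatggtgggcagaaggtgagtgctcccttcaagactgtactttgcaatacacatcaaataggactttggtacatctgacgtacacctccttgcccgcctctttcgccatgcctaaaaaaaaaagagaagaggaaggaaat
Tlr8, chrX:167264330-167264579 (− strand): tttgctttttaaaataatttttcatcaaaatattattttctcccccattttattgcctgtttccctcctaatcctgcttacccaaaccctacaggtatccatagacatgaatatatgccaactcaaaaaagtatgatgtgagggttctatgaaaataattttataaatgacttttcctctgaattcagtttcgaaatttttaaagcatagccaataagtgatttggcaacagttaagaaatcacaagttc
Tlr9, chr9:106222348-106222597 (+ strand): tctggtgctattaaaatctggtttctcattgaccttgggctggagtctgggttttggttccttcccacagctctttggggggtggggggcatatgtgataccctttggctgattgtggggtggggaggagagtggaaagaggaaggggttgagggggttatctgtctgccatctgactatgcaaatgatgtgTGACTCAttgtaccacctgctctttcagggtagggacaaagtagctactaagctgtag
The capitals in Tlr2 are overlapping kB matches (2 on the printed strand and 1 on the other), a motif held by 7.25% of 32851 RefSeq promoter windows of 250 bases. Those in Tlr9 are an AP-1 match, found on both strands because the pattern TGANTCA is its own reverse complement, a motif held by 6.75% of such windows. The ETS core, held by 19.7% of such windows, had a match in the windows of Tlr1 and Tlr2 but in none of the stretches above. The window of Tlr3 held 1 kB match, that of Myd88 no match, and the stretches of Tlr13 and Tlr8 held no match to any of the 3 motifs. A match only describes letters, and nothing about binding of a factor was measured.

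Set side by side, surface and endosomal receptors both had higher mean sums after iRFA, and their balance did not separate the groups. The endosomal receptors summed to 39.7, 38.7 and 52.7 FPKM in the iRFA libraries, against 24.3, 23.0 and 41.7 FPKM in the untreated libraries. The surface receptors summed to 36.0, 34.0 and 37.5 FPKM in the iRFA libraries, against 23.8, 24.7 and 28.3 FPKM in the untreated libraries. The surface sum was thus without overlap between groups and varied little within them, whereas the endosomal sum of untreated replicate 3 exceeded that of 2 iRFA libraries. The log2 ratio of endosomal to surface FPKM was 0.14, 0.19 and 0.49 in the iRFA libraries, against 0.03, −0.10 and 0.56 in the untreated libraries. Its mean was 0.27 ± 0.19 after iRFA and 0.16 ± 0.35 in untreated tumors (SD, n = 3 each), a difference of 0.11 that is smaller than either SD. The difference changed sign with the untreated library chosen, at 0.31 against untreated replicates 1 and 2 and −0.28 against untreated replicate 3. Tlr2 made up 59.6%, 60.6% and 58.8% of the surface sum in the iRFA libraries, against 43.8%, 46.8% and 55.1% in the untreated libraries, so the surface sum largely followed this 1 gene. Tlr13 made up 37.1%, 34.3% and 31.6% of the endosomal sum in the iRFA libraries, against 26.8%, 28.8% and 32.2% in the untreated libraries.

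**Figure D2:**
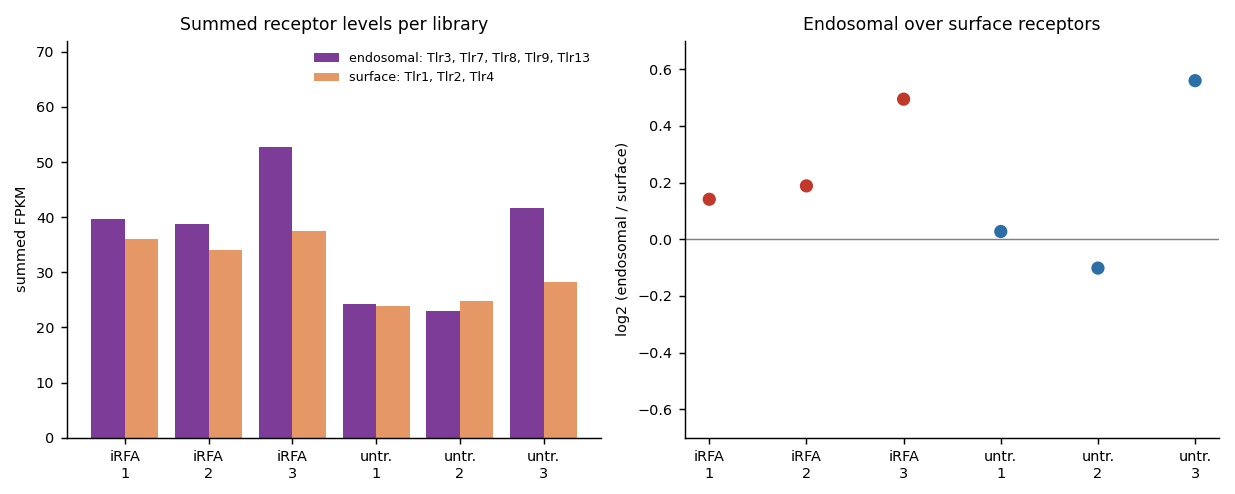
Left, summed FPKM of the endosomal (purple) and the surface (orange) receptors in the 3 iRFA and the 3 untreated libraries; right, log2 of endosomal over surface FPKM in the same libraries (iRFA red, untreated blue). The surface sums of the iRFA libraries (34.0 to 37.5 FPKM) all exceed those of the untreated libraries (23.8 to 28.3 FPKM), while the ratio is highest in untreated replicate 3, at 0.56.

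The order of the 10 levels within a library also set 2 untreated libraries apart. In each iRFA library the order began with Cd14, Tlr2, Myd88 and Tlr13, and in untreated replicate 3 with Cd14, Myd88, Tlr2 and Tlr13. In untreated replicates 1 and 2 it ran Myd88, Cd14, Tlr2, Tlr4, Tlr13, Tlr1, Tlr9, Tlr3, Tlr8 and Tlr7. Below Tlr13 the neighbors in the order lay within their spread in the iRFA group, where Tlr1, Tlr3, Tlr4, Tlr7, Tlr8 and Tlr9 had means of 7.16 ± 0.710, 7.98 ± 2.03, 7.31 ± 0.407, 7.12 ± 3.09, 7.48 ± 0.950 and 6.26 ± 1.05 FPKM (SD, n = 3).

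When untreated replicate 3 was left out, 5 of the 10 genes passed the limma threshold as higher after iRFA, against 33.9% of all tested genes, and 0 passed as lower, against 30.3%. These were Tlr13 (log2 fold change 1.07, SE 0.10, adjusted p = 3.6e-04), Tlr2 (0.90, SE 0.07, adjusted p = 1.6e-04), Cd14 (0.89, adjusted p = 6.3e-04), Tlr8 (0.74, adjusted p = 0.00185) and Tlr3 (0.67, adjusted p = 0.0277). Tlr7 (0.91, adjusted p = 0.0579) and Myd88 (−0.17, adjusted p = 0.0738) missed it, as did Tlr1, Tlr4 and Tlr9. The median log2 fold change of the 10 genes was then 0.70 and that of all tested genes 0.04. In this comparison the tumors also differed in other cell markers. Fibroblast markers summed to 515 to 810 FPKM in the iRFA libraries, against 3287 and 3833 FPKM in untreated replicates 1 and 2, and skeletal muscle markers to 36.1 to 64.3 FPKM, against 204 and 254 FPKM. In untreated replicate 3 these sums were 578 FPKM and 1.27 FPKM, so that skeletal muscle markers were higher in the iRFA libraries than in that library, with 9 of 9 above it in each. The part of these differences in the receptor values was not tested. Set against untreated replicate 3 alone, all 3 iRFA libraries were higher for 5 of the 10 genes (Tlr2, Tlr4, Tlr9, Myd88 and Cd14), against 25.7% of all tested genes, and lower for 0, against 28.6%. The median log2 fold change was then 0.11 over the 10 genes and −0.0043 over all tested genes, and none of the 10 passed the limma threshold. At an unadjusted p under 0.05, Tlr2, Tlr4 and Cd14 were higher, against 3.3% of all tested genes, and 0 of the 10 were lower, against 3.48%. This fit rests on the assumption that a lone untreated library has the spread of the iRFA group.

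**Figure D3:**
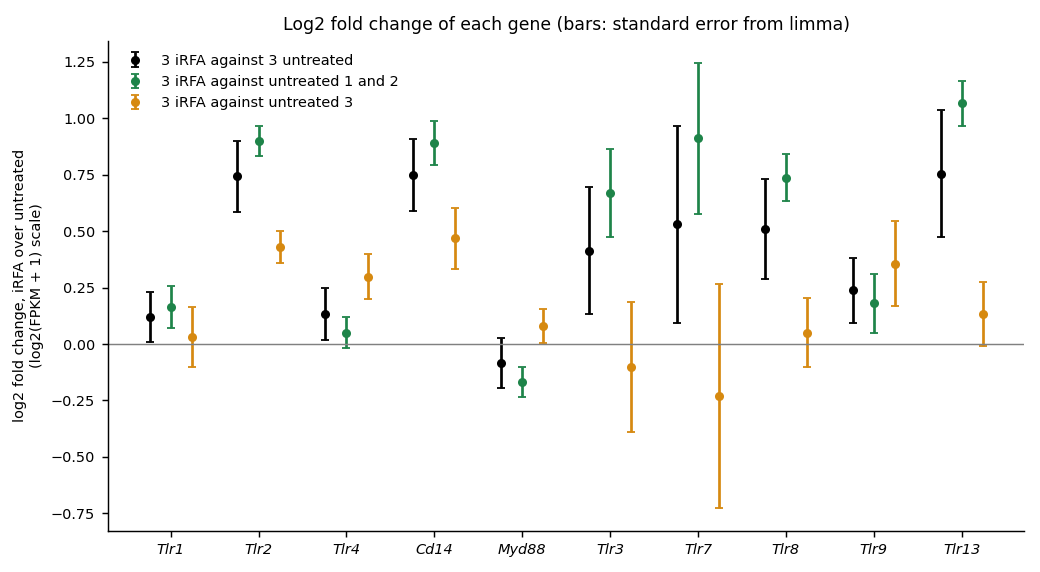
Log2 fold change of each gene, iRFA over untreated, on the log2(FPKM + 1) scale (vertical axis), with limma standard errors as bars, for all 6 libraries (black), without untreated replicate 3 (green) and against untreated replicate 3 alone (orange). Tlr2 and Cd14 stay above 0 in all 3 comparisons, while Tlr13 goes to 1.07 without untreated replicate 3 and to 0.13 against it.

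The levels were set against macrophage markers of the same library, a measure chosen after the values were seen and given without a test. With all 6 libraries, Tlr2, Cd14 and Tlr13 had somewhat higher means after iRFA, Tlr7 and Tlr8 were level, and the other genes had lower means. The geometric mean of the 10 markers was 100, 93.4 and 105 FPKM in the iRFA libraries, against 56.0, 56.3 and 89.6 FPKM in the untreated libraries. The log2 level relative to that mean was higher in iRFA tumors by 0.19 for Tlr2, 0.19 for Cd14 and 0.23 for Tlr13, and only Tlr2 was without overlap. It differed by 0.04 for Tlr7 and 0.00076 for Tlr8. For Tlr1 (−0.46) and Myd88 (−0.69) it was lower in every iRFA library than in any untreated library. For Tlr4 (−0.45), Tlr9 (−0.32) and Tlr3 (−0.12) the mean was lower with overlapping libraries. The share of all tested genes without overlap on this measure is not given here. In its denominator, 8 of the 10 markers were themselves higher without overlap. Untreated replicate 3 lay close to the iRFA libraries for Myd88, at −2.26 against −2.27 in iRFA replicate 1. The same held for Tlr1, at −3.68 against −3.74 in iRFA replicate 1. For Tlr13, untreated replicate 3 was at −2.74, beside an iRFA mean of −2.74. The level of Tlr8 relative to the macrophage markers was nearly the same in all libraries, at −3.79, −3.80 and −3.62 in the iRFA libraries, against −3.78, −3.80 and −3.65 in the untreated libraries.

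**Figure D4:**
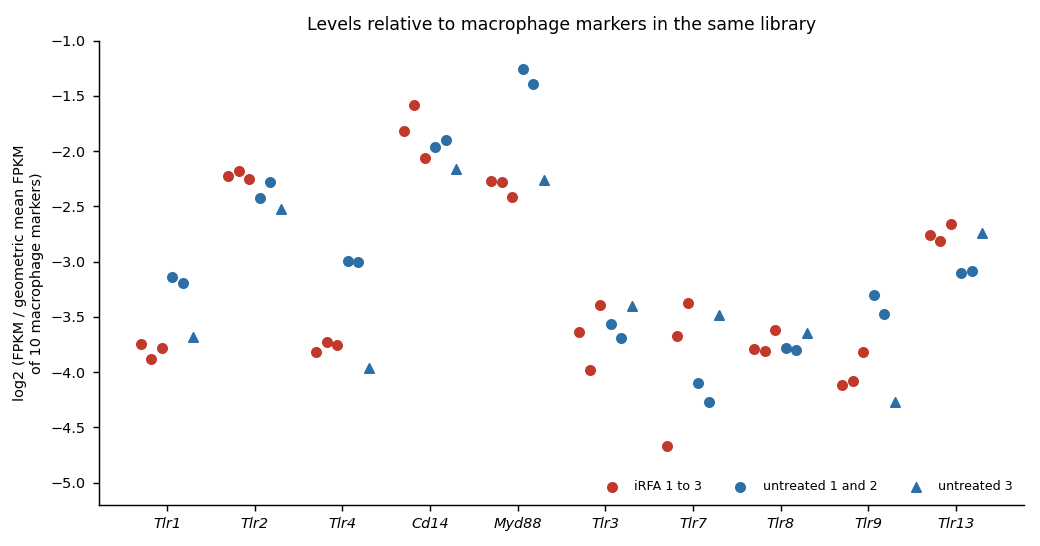
Log2 of FPKM over the geometric mean FPKM of 10 macrophage markers in the same library (vertical axis) for each of the 10 genes, with iRFA libraries in red, untreated replicates 1 and 2 as blue circles and untreated replicate 3 as blue triangles. Tlr8 holds one level in all libraries, whereas Myd88, Tlr1 and Tlr4 are highest in untreated replicates 1 and 2.

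For the 5 genes whose log2(FPKM + 1) spanned at least 1 over the 6 libraries, the tested genes of most similar profile were found by the root mean square (RMS) difference of centred profiles. For Tlr2 they were Coro1a, an actin regulator of leukocytes (RMS 0.0349), and Ccl7, a monocyte-attracting chemokine (RMS 0.0458). Coro1a was at 51.4, 50.2 and 55.8 FPKM in the iRFA libraries, against 25.4, 29.7 and 39.0 FPKM in the untreated libraries. For Tlr13 they were the pseudogene Oaz1-ps (RMS 0.0324) and Rab32, a small GTPase of lysosome-related organelles (RMS 0.0448). For Cd14 they were Gm11914 (RMS 0.0405) and the ubiquitin-conjugating enzyme gene Ube2l3 (RMS 0.0671). Tlr3 was closest to Zfp985 (RMS 0.0581) and Gm12411 (RMS 0.0916), and Tlr7 to Poc1b (RMS 0.139) and Gm25667 (RMS 0.176), so that no gene followed Tlr7 as closely as these followed Tlr2, Tlr13 and Cd14.

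The rest of the pathway was described from 9 lists of 96 measured genes, of which 90 were tested. With all 6 libraries 0 of the 90 passed the limma threshold. At an unadjusted p under 0.05, 18 were higher and 1 lower, against 7.94% and 6.75% of all tested genes. Without overlap, 22 were higher and 3 lower, against 11.4% and 10.5% of all tested genes, the shares against which the counts for each list stand too. The median log2 fold change of the 90 was 0.14. Several of the 22 are known to serve the receptors, though not only these. Macrophage markers were higher without overlap for 8 of 10, and the part of cell composition in the pathway values was not tested. Of 10 tested chaperones, transporters and proteases of endosomal receptors, 6 were higher without overlap. These included Unc93b1, the escort of the nucleic acid sensors, at 95.1, 91.2 and 105 FPKM in the iRFA libraries, against 71.6, 64.3 and 82.4 FPKM in the untreated libraries. Ctss, a lysosomal protease that trims endosomal receptors, was at 580, 505 and 635 FPKM in the iRFA libraries, against 337, 321 and 438 FPKM in the untreated libraries. Lgmn, Ctsl, Slc15a3 and 5430427O19Rik made up the rest. The chaperone Hsp90b1, which folds the receptors, was at 376, 361 and 350 FPKM in the iRFA libraries, against 190, 193 and 350 FPKM in the untreated libraries, and so took the pattern of Tlr13, with untreated replicate 3 at the level of the iRFA libraries.

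Of 5 ligand-binding partners of the surface receptors, 3 were higher without overlap: Ly96, Ly86 and Cd36. Ly96 (MD-2), which forms the lipopolysaccharide site with Tlr4, was at 7.29, 7.61 and 6.86 FPKM in the iRFA libraries, against 4.78, 3.69 and 5.92 FPKM in the untreated libraries. Lbp, the serum protein that loads Cd14 with lipopolysaccharide, was at 0.847, 1.15 and 2.28 FPKM in the iRFA libraries, against 16.6, 15.8 and 0.420 FPKM in the untreated libraries. It was thus high in untreated replicates 1 and 2 alone. Of 4 tested adaptors besides Myd88, Pik3ap1 and Ticam2 were higher without overlap. Pik3ap1 (BCAP), which links receptors to phosphoinositide 3-kinase, was at 17.8, 18.1 and 22.0 FPKM in the iRFA libraries, against 12.8, 14.9 and 16.2 FPKM in the untreated libraries. Tirap and Ticam1 overlapped between groups, with log2 fold changes of 0.16 and 0.03. Of 3 other receptors tested, Tlr6 was higher without overlap, at 2.57, 2.25 and 2.69 FPKM in the iRFA libraries, against 1.44, 1.32 and 2.20 FPKM in the untreated libraries, and Tlr12 and Tlr5 were not.

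Downstream of the receptors, and among their ligands, the list medians lay between −0.21 and 0.14. Of 15 kinases and ubiquitin ligases, 2 were higher (Irak2 and Tab3) and 2 lower (Tab1 and Ikbkb) without overlap, and the median log2 fold change was 0.05. Tab2, Tbk1 and Irak1, the most abundant of them, overlapped between groups. Of 10 transcription factors only Nfkb1 was higher without overlap, and by a narrow margin. Its lowest iRFA library was at 17.81 FPKM and untreated replicate 3 at 17.80 FPKM. Against that untreated library alone its log2 fold change was 0.05. For Nfkb2 (0.72), Irf1 (0.50) and Rela (−0.26), given as log2 fold changes with all 6 libraries, the groups overlapped. Of 13 negative regulators only Il1rl1 was higher without overlap. Tnip1, an inhibitor of NF-kB signaling, was at 11.8, 11.4 and 11.6 FPKM in the iRFA libraries, against 37.5, 39.9 and 11.0 FPKM in the untreated libraries, and Nfkbia (0.53) and Tollip (0.02) overlapped as well.

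Among 17 tested target cytokines and enzymes, 5 were higher (Ccl2, Ccl5, Cxcl10, Acod1 and Cd40) and 1 lower (Il10) without overlap, around a median log2 fold change of −0.06. Ccl2, a chemokine that draws monocytes, was at 174, 172 and 177 FPKM in the iRFA libraries, against 27.7, 26.5 and 132 FPKM in the untreated libraries. Cxcl10, an interferon-induced chemokine, was at 87.6, 67.3 and 74.6 FPKM in the iRFA libraries, against 22.9, 22.3 and 48.1 FPKM in the untreated libraries. Ccl5 was at 55.9, 52.6 and 63.6 FPKM in the iRFA libraries, against 24.4, 22.9 and 36.6 FPKM in the untreated libraries. In all 3 chemokine genes untreated replicate 3 lay between the other untreated libraries and the iRFA libraries, as it did for Tlr2 and Cd14. Il6, Il12a, Cxcl2 and Ifnb1 fell under the filter and were not tested. Of 13 genes for endogenous ligands, such as heat-shock proteins and matrix molecules, only Hsp90aa1 was higher without overlap, and the median log2 fold change was −0.21. Fn1 (0.19), Hspd1 (1.13) and Bgn (−2.91), the most abundant of them, overlapped between groups. Without untreated replicate 3, 36 of the 90 pathway genes passed the limma threshold as higher and 25 as lower. Of all tested genes 33.9% and 30.3% did, so the pathway lists lay near the background there. Set against untreated replicate 3 alone, all 3 iRFA libraries were higher for 38 of the 90 and lower for 11. The shares of all tested genes were 25.7% and 28.6%, so the lists did not lie near the background in that comparison.

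**Figure D5:**
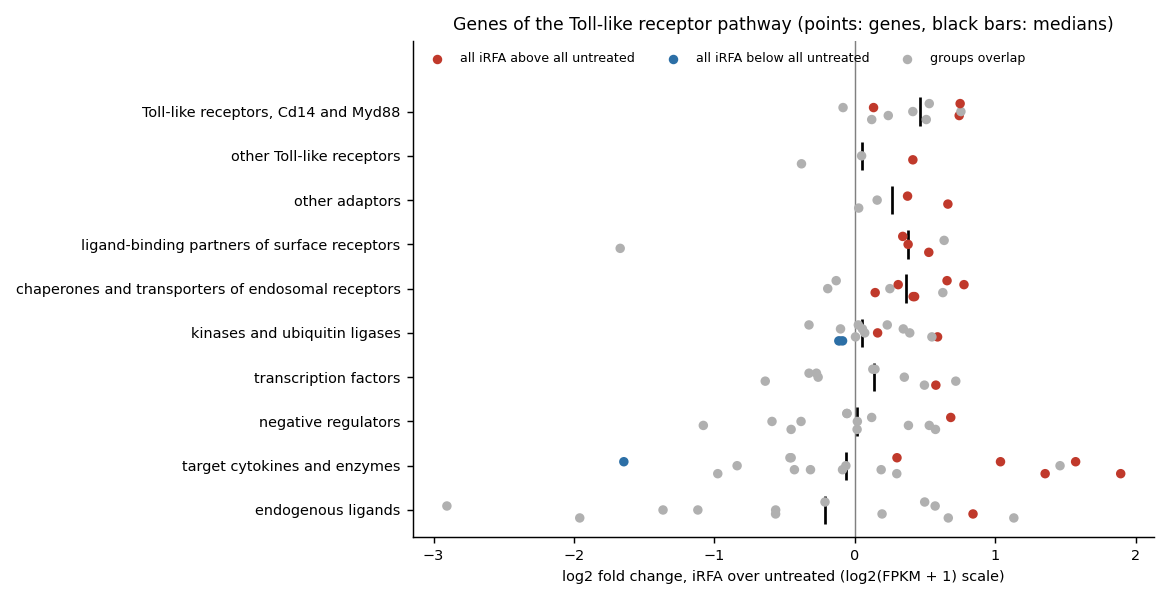
Log2 fold change, iRFA over untreated, on the log2(FPKM + 1) scale (horizontal axis) of each tested gene of the 10 described genes and the 9 pathway lists, with black bars for list medians and colors for genes whose groups did not overlap (red higher, blue lower). The 10 genes have a median of 0.46 and chaperones and transporters of endosomal receptors of 0.36, while endogenous ligands lie around −0.21.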

How the data were processed

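RNA-seq of 3 iRFA-treated tumors, taken 3 days after iRFA, and 3 untreated tumors was used, all described as CT26 and grouped by the labels. According to the submitters' processing notes, read quality was inspected in FastQC, HISAT2 and the GRCm38 build served for alignment, and StringTie gave the FPKM values that the authors deposited. Versions, strandedness and depth are not given in the sources used here, and FPKM keeps no counts, so precision rests on the spread between libraries.

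The 15560 genes whose FPKM averaged 0.5 or more across all libraries were tested as log2(FPKM + 1), and 16550 were not. The test was limma 3.58.1 (R 4.3.3) with a variance trend and without covariates. It was two-sided, and p-values were adjusted by Benjamini-Hochberg over all tested genes, with a threshold of 0.05. The pseudocount of 1 understates changes of low genes. On simulated data with the spread of the iRFA libraries, the test was checked for its mean estimates. Its power at the pooled spread of both groups is not given here. Summaries and plots used Python 3.11.15, numpy 2.4.6, pandas 2.3.3, scipy 1.17.1 and matplotlib 3.10.9.

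The members and lists were chosen with earlier results of these data known. Named genes are the 10 members, up to 3 tested genes of highest mean FPKM per pathway list, and the 2 most similar profiles of each member spanning at least 1 on the log2 scale. Others, such as Unc93b1, Ly96, Ticam2, Acod1 and those listed as not overlapping, were named after their values were seen. The neutrophil marker Ly6g and the gene Tasl under that symbol were not analysed here, and the older symbol 5430427O19Rik was used for Tasl. Alternatives were another pseudocount, 2 other filters, 3 scalings, the replicate number as a block, limma without the trend, each library left out and, for the receptor ratio, other memberships. Leaving out untreated replicates 1 and 2, or Tlr2 from the surface receptors, was added after seeing the data.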

Additional observations from a re-analysis of the deposited data

How the results depend on the processing

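With untreated replicate 3 left out, limma called 5269 genes higher, 4711 lower and 5 of the 10 genes described. Over the libraries left out in turn, the counts ranged from 0 to 5269 genes called higher, 0 to 4711 called lower and 0 to 5 of the 10 called. The number of the 10 that were higher in every iRFA library ranged from 3 to 7. It was 7 without iRFA replicate 2 (15.2% of all tested genes) and 7 without untreated replicate 3 (41% of all tested genes). The number lower ranged from 0 to 1. The 1 was Myd88 without untreated replicate 3, where 36.5% of all tested genes were lower. Leaving out the first and second untreated replicates was decided after seeing the data. In that setting 5 of the 10 were higher in every iRFA library, against 25.7% of all tested genes. The log2 fold changes of Tlr3 (−0.10), Tlr7 (−0.23) and Myd88 (0.0809) then changed sign, and the difference in the endosomal to surface log2 ratio was −0.28. That difference was 0.46 with Tlr2 left out of the surface receptors, also chosen after seeing the data, against 0.11 as reported. The causes were not tested.

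In limma the replicate block left 0 genes called higher and 0 called lower. Deviations of same-numbered libraries from their group means correlated at −0.0944, −0.105 and −0.23. These values cannot decide whether the numbers pair the libraries, because untreated replicate 3 stood apart from its group. A pseudocount of 0.1, no filter, a mean of at least 1 FPKM, quantile normalization, median-of-ratios scaling, equal library sums of 1000000 and limma without the trend changed no direction and no call among the 10 genes. The number higher in every iRFA library was 2 with equal sums (without Tlr4), against 9.1% of all tested genes. It was 4 with median-of-ratios scaling (with Tlr13), against 13.5% of all tested genes. With quantile normalization it was 4 (with Tlr9), against 13.3% of all tested genes. Depth is unknown.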
